A study of Mus musculus with 9 samples.

Results

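Abca1, Abcg1, Nr1h3, Apoe, Mylip, Ch25h, Npc1, Pparg, Lpl and Plin2 are 10 genes of macrophage lipid handling tied to the nuclear receptors LXR and PPARg. They were taken by symbol from the 53465 genes of the count table, and all 10 were found and passed the filter on low counts. RNA was sequenced from 9 libraries of mouse bone marrow derived macrophages (BMDMs), grown from male C57BL/6 mice (of the J substrain in the study's methods) with the growth factor CSF1 at 50 ng/ml and 10% serum. Of these, 3 were left untreated (UNX), 3 received medium conditioned by pulmonary artery adventitial fibroblasts of control calves (CO-CM), and 3 received medium conditioned by the same kind of fibroblasts from calves with hypoxia-induced pulmonary hypertension (PH-CM). Each conditioned medium was a pool from 5 fibroblast populations with 10% serum added. Replicates therefore repeat the macrophage culture and not the calf, and the macrophages and the medium come from different species. In the study's methods the fibroblasts were themselves cultured with 10% bovine calf serum. Total serum may therefore differ between UNX and treated cells, and its part in the results was not tested. Sources differ on the time in conditioned medium, with 18 h in the study's methods and both 16 h and 24 h in the labels. They also differ on glutamine, with 2 mM in the growth medium of the study's methods and 5 mM in the labels. Whether UNX cells received a change of unconditioned medium is not given in the sources used here.

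LXR and PPARg are ligand-activated transcription factors that bind DNA together with a retinoid X receptor partner. LXR responds to oxysterols, the oxidised forms of cholesterol that build up when a cell is loaded with sterol, and in macrophages it turns on genes that send cholesterol out of the cell. PPARg responds to fatty acids and their derivatives and turns on genes of fatty acid uptake, storage and lipoprotein breakdown, and it is best known from fat cells and from alveolar macrophages. Of the genes described here, Nr1h3 encodes LXRa and Pparg encodes PPARg. Abca1, Abcg1, Apoe and Mylip are classical LXR targets, Ch25h makes an oxysterol ligand, Npc1 passes cholesterol out of the lysosome, and Lpl and Plin2 take part in lipolysis and lipid storage.

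Counted reads per library ranged from 62017933 to 84314201 in UNX, 68317274 to 73049365 in CO-CM and 63493877 to 66935070 in PH-CM libraries. Values are given as CPM, the reads of a gene relative to the TMM-scaled size of its library, as mean ± SD over 3 libraries (n = 3). A gene was called when the adjusted p of edgeR's quasi-likelihood test over 11950 tested genes (FDR) was at most 0.05 and the fold change at least 1.2. The 8 macrophage markers, among them Csf1r, Adgre1 and Cd68, were present in all libraries, with a summed level of 11818 to 12613 CPM in UNX, 19014 to 19970 in CO-CM and 21462 to 23275 in PH-CM libraries. Against UNX, 7 of them were called higher and 0 lower with PH-CM, beside 31.3% and 31.7% of all tested genes. With CO-CM, 5 were called higher and 1 lower (2 lower with library size alone), beside 28% and 28.9%. Mertk is on this list and also among the other LXR targets below. Of 7 adipocyte markers, Lep, Cfd and Cidec had 0 reads in every library, and only Fabp4, which macrophages also express, passed the filter. The summed adipocyte marker level was 24.3 to 53.2, 177 to 257 and 69.8 to 107 CPM. Of 7 fibroblast markers 6 passed, summing to 197 to 249 CPM in UNX, 267 to 318 in CO-CM and 249 to 335 in PH-CM libraries. Of these markers, 4 were called higher in PH-CM than in UNX and 2 in CO-CM than in UNX, beside 31.3% and 28% of all tested genes. The 4 became 2 without UNX replicate 1 or without PH-CM replicate 3, and the 2 became 1 with library size alone and without UNX replicate 1, UNX replicate 2 or CO-CM replicate 3. Their part in the results was not tested. The 7 neutrophil and precursor markers summed to at most 4.46 CPM and the 6 dendritic cell markers to at most 1.58 CPM. Within a group, library pairs that included replicate 1 differed by a chi-square per gene of 17.6 to 46.3, and the other pairs by 8.91 to 14.3. The calls of the 10 genes are therefore also given without the 3 libraries numbered 1, where that changes them.

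PH-CM treated BMDMs had more Abca1 and Apoe, less Pparg and Abcg1, and far less Lpl than untreated cells. Compared with UNX, 4 of the 10 genes were called higher under PH-CM (Abca1, Apoe, Npc1 and Nr1h3) and 4 lower (Lpl, Ch25h, Pparg and Abcg1), while Mylip and Plin2 did not pass the thresholds. Over all tested genes, 31.3% were called higher and 31.7% lower in this comparison, and 63% in either direction. Under CO-CM, 6 genes were called higher (Apoe, Nr1h3, Plin2, Mylip, Npc1 and Pparg) and 1 lower (Ch25h), against 28% and 28.9% of all tested genes (57% in either direction). Directly compared, PH-CM gave 1 gene higher than CO-CM (Abca1) and 6 lower (Lpl, Pparg, Abcg1, Plin2, Nr1h3 and Mylip), where 12.2% of all tested genes were called higher and 15% lower (27.1% in either direction). At a fold of at least 2, calls were left for 5, 2 and 4 of the 10 genes in the 3 comparisons, beside 18%, 13.8% and 5.12% of all tested genes. Libraries did not overlap between the groups for 10 of the 10 genes in PH-CM against UNX (6 higher, 4 lower), beside 77.7% of all tested genes (38.9% higher, 38.8% lower). In CO-CM against UNX they did not overlap for 7 genes (6 higher, 1 lower), beside 72% (35.4% and 36.7%), and in PH-CM against CO-CM for 7 genes (1 higher, 6 lower), beside 50.2% (23.9% and 26.3%). Against UNX the 8 and 7 calls among the 10 genes are not far from these shares, and between the media 7 of the 10 were called. Ch25h passed the filter only through the UNX libraries, so its calls and non-overlap against UNX are partly built into the selection. Called in all 3 comparisons were Nr1h3 and Pparg, beside 13.8% of all tested genes. The median log2 fold change of the 10 genes was 0.24 for PH-CM against UNX, 0.55 for CO-CM against UNX and -0.54 for PH-CM against CO-CM, and that of all tested genes lay within 0.01 of 0 in each. Both media were compared with the same UNX libraries. In these bulk RNA samples, fewer cells that express a gene and less RNA per cell cannot be told apart.

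**Figure D1:**
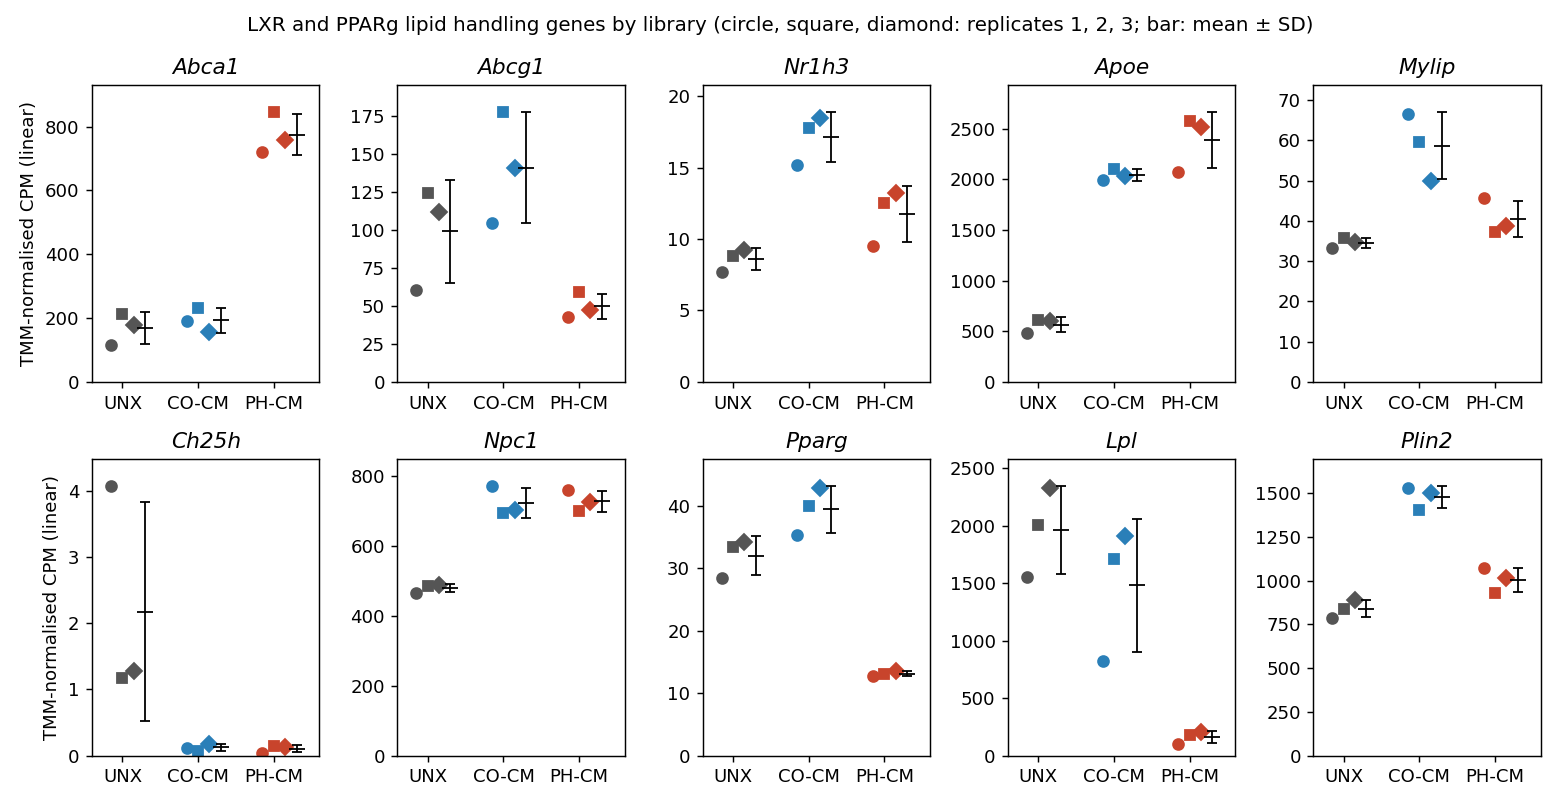
TMM-normalised CPM of each gene (vertical axis, linear, a separate scale per gene) in the 3 UNX, 3 CO-CM and 3 PH-CM libraries, with symbols for replicates 1, 2 and 3 and a bar for the mean ± SD. Abca1 is high in the PH-CM libraries alone, Lpl and Pparg are low in them alone, Apoe and Npc1 are raised with both media, and Ch25h is detected above 1 CPM in the UNX libraries alone.

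Abca1 moves cholesterol and phospholipid across the plasma membrane onto lipid-poor apolipoproteins. In UNX libraries it was at 116, 212 and 178 CPM in replicates 1, 2 and 3, in CO-CM libraries at 191, 232 and 155 CPM, and in PH-CM libraries at 720.4, 846 and 757 CPM. Every PH-CM library was above every other library, whereas UNX and CO-CM libraries overlapped. The mean rose from 169 ± 48.6 CPM in UNX to 774 ± 64.5 CPM in PH-CM, a log2 fold change of 2.20 (SE 0.20, FDR = 3.74e-06). PH-CM was also higher than CO-CM, where the mean was 193 ± 38.2 CPM, by 2.01 on the log2 scale (SE 0.20, FDR = 3.75e-05). CO-CM against UNX gave a log2 fold change of 0.19 with a 95% interval from -0.25 to 0.62 (FDR = 0.413), and it was -0.03 without UNX replicate 1. Of the 11950 tested genes, 95 rose more than Abca1 between CO-CM and PH-CM.

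The Abca1 gene lies at chr4:53030787-53159895 on the minus strand (GRCm38). LXR is known to bind direct repeats of AGGTCA spaced by 4 bases (DR4, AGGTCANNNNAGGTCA), and PPARg direct repeats spaced by 1 base (DR1, AGGTCANAGGTCA), each with 12 fixed letters. RefSeq promoter windows, from 250 bases before to 50 bases after a start, were searched on both strands, and 12 windows of 7 of the 10 genes were found. Abcg1, Npc1 and Lpl had none. With up to 2 mismatches, DR4 was in 0 of these 12 windows and in 3.02% of all 32851 promoter windows. With 3 mismatches it was in the Abca1 window and in 1 of the 3 Pparg windows, against 21.9% of all windows. In only 12 windows, a count of 0 cannot be told apart from a share of 3.02%. Sequence outside the windows was not searched. The 250 bases before the Abca1 start (chr4:53159896-53160145, minus strand, GRCm38.p6) are shown because Abca1 is the gene that separated the media upward, with the 9-of-12 match, at -67 to -52 from the start and on the opposite strand, in capitals:

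Abca1: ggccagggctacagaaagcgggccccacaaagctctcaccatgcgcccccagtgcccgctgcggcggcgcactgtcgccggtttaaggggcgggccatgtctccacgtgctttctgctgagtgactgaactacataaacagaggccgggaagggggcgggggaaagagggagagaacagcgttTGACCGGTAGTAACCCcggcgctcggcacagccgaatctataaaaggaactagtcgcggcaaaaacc

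Matches with 3 mismatches are frequent among promoters. The letters alone show neither that a receptor binds there nor that none does, and binding was not tested.

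Abcg1, the partner exporter that loads cholesterol onto high density lipoprotein, went the other way. Its level was 60.8, 125 and 112 CPM in UNX, 105, 178 and 141 CPM in CO-CM and 43.0, 59.2 and 47.0 CPM in PH-CM libraries. All PH-CM libraries were below all others, with UNX replicate 1 closest to them. The mean fell from 99.1 ± 33.8 CPM in UNX to 49.7 ± 8.43 CPM in PH-CM, a log2 fold change of -0.997 (SE 0.26, FDR = 0.00507). Against CO-CM, at 141 ± 36.6 CPM, the log2 fold change was -1.50 (SE 0.26, FDR = 0.00124), and 103 tested genes fell more. CO-CM libraries overlapped UNX libraries, and the log2 fold change of 0.51 was not called (FDR = 0.0985). It was called when the replicate number entered as a block term (0.53, FDR = 0.000685), without UNX replicate 2 (0.70, FDR = 0.0452), without CO-CM replicate 1 (0.68, FDR = 0.0364) and without the 3 libraries numbered 1 (0.42, FDR = 0.0146). The Abcg1 gene is at chr17:31057675-31117988 on the plus strand.

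Since Abca1 was highest and Abcg1 lowest in the PH-CM libraries, the ratio of both exporters had to separate those libraries from the others. On the RPKM scale, which corrects for gene length, the Abca1 to Abcg1 ratio was 0.751, 0.668 and 0.624 in UNX, 0.716, 0.511 and 0.433 in CO-CM and 6.58, 5.61 and 6.31 in PH-CM libraries. Every PH-CM library was above every other library by this ratio. The deposited RPKM values imply 4066 exon bases for Abcg1, where the annotation used here has 7298. With the longer model the ratio was 1.35, 1.199 and 1.12 in UNX, 1.28, 0.917 and 0.777 in CO-CM and 11.8, 10.07 and 11.3 in PH-CM libraries. Which of the pair had the higher level in UNX and CO-CM libraries therefore depends on the gene model, whereas Abca1 was the higher one in all 3 PH-CM libraries by either.

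**Figure D2:**
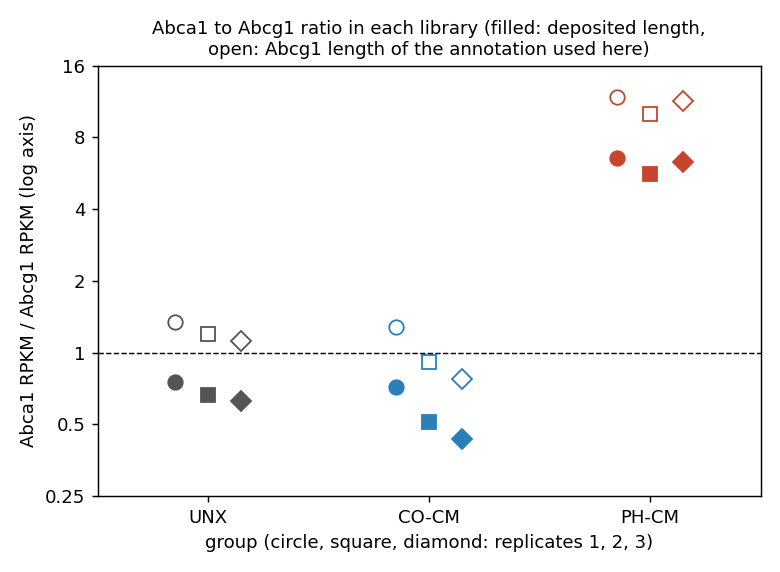
Ratio of Abca1 RPKM to Abcg1 RPKM (vertical axis, log scale) in each of the 9 libraries by group, filled with the deposited gene length, open with the 7298 exon bases of Abcg1 in the annotation used here, and a dashed line at 1. The PH-CM libraries lie between 5.61 and 6.58 (filled) and between 10.07 and 11.8 (open), and the other libraries lie below 1 when filled and on both sides of 1 when open.

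Nr1h3, which encodes LXRa, was expressed at a low level. It was at 7.72, 8.82 and 9.24 CPM in UNX, 15.2, 17.8 and 18.5 CPM in CO-CM and 9.51, 12.5 and 13.2 CPM in PH-CM libraries. The groups did not overlap in any of the 3 comparisons, with UNX lowest, PH-CM between and CO-CM highest. CO-CM against UNX gave a log2 fold change of 0.99 (SE 0.13, FDR = 5.77e-05) and PH-CM against UNX 0.45 (SE 0.13, FDR = 0.00942). PH-CM was lower than CO-CM, with a log2 fold change of -0.54 (SE 0.13, FDR = 0.00708). The gene is at chr2:91184061-91202834 on the minus strand and shares 34 exon bases with Gm13783, which had 23 reads in all libraries together.

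Apoe, a lipoprotein component that macrophages secrete and that accepts exported cholesterol, rose strongly with either medium. Its level was 480.0, 613 and 599 CPM in UNX, 1992, 2101 and 2033 CPM in CO-CM and 2066, 2575 and 2516 CPM in PH-CM libraries. Both treated groups lay wholly above UNX and overlapped each other. The mean was 564 ± 73.0 CPM in UNX, 2042 ± 55.4 CPM in CO-CM (log2 fold change 1.86, SE 0.11, FDR = 1.57e-07) and 2386 ± 278 CPM in PH-CM (2.08, SE 0.11, FDR = 4.72e-08). Between the media the log2 fold change was 0.22, with a 95% interval from -0.01 to 0.45 (FDR = 0.114). It was called without PH-CM replicate 1 (0.32, FDR = 0.0305) and without the 3 libraries numbered 1 (0.31, FDR = 0.000481). In the window of the Apoe start at the end of the annotated gene (chr7:19696109-19699188, minus strand), DR1 matched with 3 mismatches at -28 to -16 and again just after the start. The 250 bases before it (chr7:19699189-19699438, minus strand, GRCm38.p6) are shown for a gene that both media raised, with the first of these matches in capitals:

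Apoe: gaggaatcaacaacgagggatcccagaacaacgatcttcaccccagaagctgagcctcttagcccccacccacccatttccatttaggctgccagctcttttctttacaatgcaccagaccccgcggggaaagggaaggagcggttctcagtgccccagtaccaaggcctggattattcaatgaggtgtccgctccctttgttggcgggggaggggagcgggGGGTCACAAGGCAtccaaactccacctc

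DR1 with up to 3 mismatches was in 24.6% of all promoter windows.

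Mylip encodes IDOL, a ubiquitin ligase that marks lipoprotein receptors for degradation. It was at 33.3, 35.7 and 34.6 CPM in UNX, 66.6, 59.5 and 49.9 CPM in CO-CM and 45.6, 37.1 and 38.8 CPM in PH-CM libraries. CO-CM libraries were above all others. CO-CM against UNX gave a log2 fold change of 0.76 (SE 0.10, FDR = 7.95e-05), and PH-CM against CO-CM -0.53 (SE 0.10, FDR = 0.00244). All PH-CM libraries were above all UNX libraries, but the log2 fold change of 0.23 was not called (FDR = 0.0667), except without PH-CM replicate 2 (0.29, FDR = 0.0453). The gene is at chr13:45389742-45412022 on the plus strand.

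Of the receptors that IDOL acts on, Lrp8 fell with both media, with log2 fold changes of -1.84 for CO-CM and -1.66 for PH-CM. Vldlr, at only 0.370, 1.19 and 1.12 CPM in UNX, was near the threshold, with log2 fold changes of 1.12 (FDR = 0.0431) and 1.08 (FDR = 0.0472). With UNX replicate 1 below 1 CPM, Vldlr needed treated libraries to pass the filter. A call in this direction is therefore partly built into the selection. The call for CO-CM was lost without 5 of the 9 libraries, each left out alone, with values down to 0.76 without UNX replicate 1. The call for PH-CM was lost without 6 of them, down to 0.73 without UNX replicate 1, and with library size alone, with filterByExpr and with only the groups compared.

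Npc1, on chromosome 18, encodes the lysosomal membrane protein that releases cholesterol taken up with lipoproteins. It was at 465, 485 and 487 CPM in UNX, 771, 694 and 701 CPM in CO-CM and 758, 698 and 724 CPM in PH-CM libraries. The treated groups lay above UNX and overlapped each other. The log2 fold change was 0.59 with CO-CM (SE 0.06, FDR = 5.38e-06) and 0.60 with PH-CM (SE 0.06, FDR = 3.53e-06). The difference between the media was 0.01, with a 95% interval from -0.11 to 0.13 (FDR = 0.919). Npc1 shares 511 exon bases with Rmc1 on the opposite strand, which had 33356 reads in all libraries together, beside 108522 Npc1 reads in UNX, 149013 in CO-CM and 140051 in PH-CM, and the counting is described without a strand option.

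Ch25h, the hydroxylase that turns cholesterol into an oxysterol ligand of LXR, was nearly lost with either medium. UNX libraries held 264, 88 and 110 reads of it, CO-CM libraries 8, 5 and 13 reads, and PH-CM libraries 3, 9 and 8 reads. Expressed as CPM this was 4.07, 1.17 and 1.28 in UNX, 0.117, 0.0748 and 0.183 in CO-CM, and 0.0446, 0.145 and 0.127 in PH-CM libraries. Even the lowest UNX library was above all 6 treated libraries, and UNX replicate 1 stood far above the other UNX libraries. The log2 fold change was -4.07 for CO-CM (SE 0.61, FDR = 0.00016) and -4.34 for PH-CM (SE 0.64, FDR = 0.000116). Leaving out single libraries moved these values between -4.46 and -3.28 and between -4.65 and -3.54. The gene passed the filter only through the UNX libraries, so a call in this direction is partly built into the selection. With 20 reads in PH-CM and 26 in CO-CM, a difference between the media was not detectable at this depth (log2 fold change -0.27, 95% interval -2.34 to 1.81, FDR = 0.845). Ch25h has 1 exon at chr19:34473778-34475164 on the minus strand and shares 159 of its bases with Gm26902 on the opposite strand, which had 79 reads in all.

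Pparg, the receptor itself, moved in opposite directions under the media. It was at 28.5, 33.4 and 34.2 CPM in UNX, 35.4, 40.0 and 42.8 CPM in CO-CM and 12.8, 13.1 and 13.5 CPM in PH-CM libraries. The PH-CM libraries lay close together and below all others. The mean fell from 32.0 ± 3.09 CPM in UNX to 13.1 ± 0.40 CPM in PH-CM, a log2 fold change of -1.29 (SE 0.09, FDR = 3.8e-07), and PH-CM against CO-CM gave -1.59 (SE 0.09, FDR = 7.74e-07), a larger fall than in all but 94 of the tested genes. CO-CM raised the mean to 39.4 ± 3.78 CPM, by 0.30 on the log2 scale (SE 0.08, FDR = 0.00925). That rise was near the fold threshold and was not called with library size in place of TMM (0.23), with no filter (0.26), without UNX replicate 1 (0.21) or without CO-CM replicate 3 (0.23). Among all tested genes, 1.3% were called in opposite directions under the media. Pparg is at chr6:115360951-115490399 on the plus strand. The 250 bases before the start whose window held the DR4 match (chr6:115362099-115362348, plus strand, GRCm38.p6) are shown for the receptor gene that fell with PH-CM, with the 9 matching-site bases that lie before the start in capitals, of which the first are an exact AGGTCA:

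Pparg: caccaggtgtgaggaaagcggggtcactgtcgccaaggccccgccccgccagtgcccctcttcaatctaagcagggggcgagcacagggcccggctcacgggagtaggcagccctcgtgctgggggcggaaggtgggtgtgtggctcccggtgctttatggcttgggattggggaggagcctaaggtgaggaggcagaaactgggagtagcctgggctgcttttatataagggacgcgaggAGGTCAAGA

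An exact AGGTCA was in 3 of the 12 member windows, of Plin2 and Pparg, and in 16.3% of all windows.

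Lpl, lipoprotein lipase, frees fatty acids from triglyceride-rich lipoproteins and is a known PPARg and LXR target. It was at 1557, 2003 and 2324 CPM in UNX, 824, 1710.3 and 1909 CPM in CO-CM and 103, 175 and 209.8 CPM in PH-CM libraries. Replicate 1 was the lowest in each group, and the highest PH-CM library was far below the lowest of the others. The mean fell from 1961 ± 385 CPM in UNX to 163 ± 54.4 CPM in PH-CM, a 12.05-fold decrease (log2 fold change -3.59, SE 0.35, FDR = 4.89e-06). Against CO-CM, at 1481 ± 577 CPM, the decrease was 9.10-fold (-3.19, SE 0.34, FDR = 5.43e-05), and only 8 of the 11950 tested genes fell more. CO-CM libraries overlapped UNX libraries, with a log2 fold change of -0.41 (FDR = 0.269). That difference was called when the replicate number entered as a block term (-0.48, FDR = 0.00161) and without the 3 libraries numbered 1 (-0.27, FDR = 0.0361), while it was -0.12 without CO-CM replicate 1 (FDR = 0.704). Lpl is at chr8:68880491-68907448 on the plus strand.

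Plin2 coats lipid droplets and rises with lipid load in macrophages. It was at 789, 841 and 889 CPM in UNX, 1528, 1405 and 1502 CPM in CO-CM and 1070.5, 930.4 and 1013 CPM in PH-CM libraries. The groups did not overlap, in the order UNX, PH-CM, CO-CM. CO-CM against UNX gave a log2 fold change of 0.82 (SE 0.07, FDR = 2.26e-06) and PH-CM against CO-CM -0.56 (SE 0.07, FDR = 0.000127). PH-CM against UNX had a log2 fold change of 0.26 (SE 0.07, FDR = 0.00525), and since this is a 1.196-fold difference it missed the threshold of 1.2. It was called without UNX replicate 3 (0.29), without PH-CM replicate 2 (0.31) and with upper-quartile factors (0.29). The Plin2 gene is at chr4:86648386-86670060 on the minus strand. Its window was the one member window with DR1 at up to 2 mismatches, which 3.86% of all windows hold, and it held a further match with 3. The 250 bases before its start (chr4:86670060-86670309, minus strand, GRCm38.p6) are shown for that reason, with both matches, at -225 to -213 and at -161 to -149 and both on the opposite strand, in capitals:

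Plin2: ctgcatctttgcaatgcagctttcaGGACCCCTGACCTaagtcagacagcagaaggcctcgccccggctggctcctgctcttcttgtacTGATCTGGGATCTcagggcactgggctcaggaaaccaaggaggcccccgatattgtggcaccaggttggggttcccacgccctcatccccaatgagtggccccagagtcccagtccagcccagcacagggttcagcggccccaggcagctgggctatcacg

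**Figure D3:**
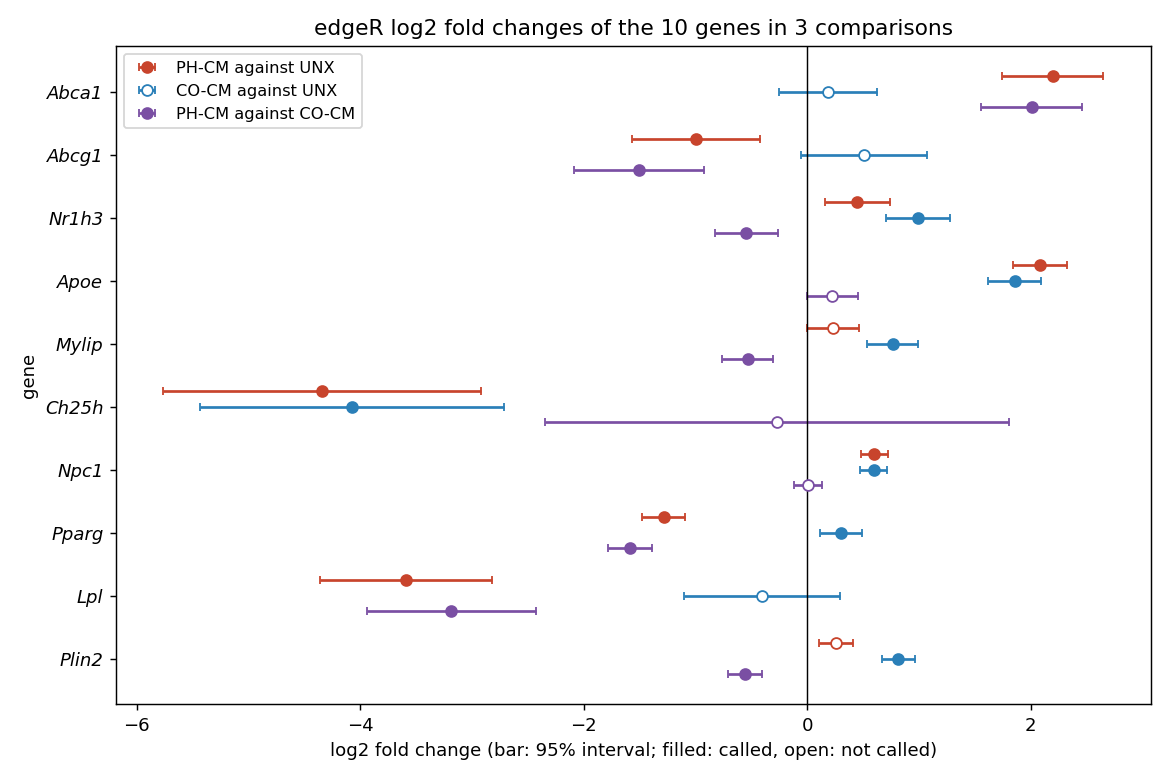
Log2 fold changes (horizontal axis) of the 10 genes from edgeR for PH-CM against UNX, CO-CM against UNX and PH-CM against CO-CM, with 95% intervals, filled where called and open where not. Abca1 lies at 2.20 and Lpl at -3.59 for PH-CM against UNX, while the intervals of both for CO-CM against UNX include 0.

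The means of Abcg1, Nr1h3, Mylip, Pparg and Plin2 were highest in CO-CM libraries, and each of these genes was called lower in PH-CM than in CO-CM. Over the 9 libraries, log2 CPM of Mylip and Plin2 correlated with r = 0.944, Pparg and Lpl with 0.944, Apoe and Npc1 with 0.967, and Abca1 and Lpl with -0.923. Abca1 and its receptor gene Nr1h3 had an r of 0.05. These are descriptions over 3 groups of 3 libraries that share their scaling, and the group means set most of each value. Among all tested genes, the pattern most like that of Abca1 was that of Rnpep and Slc31a1 (r = 0.995 and 0.994), that of Lpl was nearest to Rplp1 and Galnt12 (0.998 and 0.996), and that of Pparg to Mdh1 and Ebpl (0.995 and 0.994). For Npc1 the nearest were Stard5, a sterol transfer protein, and Scarb2, a lysosomal membrane protein (0.999 and 0.994), and for Apoe they were Dcaf8 and Rufy3 (0.998 each). Abcg1 was nearest to Dnmt3a and Acadl (0.982 and 0.98), Nr1h3 to Sri and Mpg (0.989 and 0.988) and Mylip to Ggact and Rab6b (0.971 and 0.969). For Ch25h they were Dph6 and Lpcat4 (0.985 and 0.984), and for Plin2 Syngr1 and Gpr157 (0.993 and 0.992). Rplp1 has near-identical copies in the genome, which makes its count uncertain.

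Per length of gene, Apoe led in every group, at 271 ± 31.6 RPKM in UNX, 936 ± 11.3 RPKM in CO-CM and 1101 ± 114 RPKM in PH-CM libraries. In UNX, Apoe and Plin2 (246 ± 11.6 RPKM) overlapped, followed by Lpl (192 ± 35.5 RPKM) and Npc1 (45.9 ± 0.53 RPKM). Abcg1, Abca1, Pparg and Mylip, at 25.0, 16.7, 11.1 and 10.99 RPKM, each overlapped the next, although with the 7298 exon bases given above Abcg1 would be at 13.9 RPKM and below Abca1. Further down, Nr1h3 (3.51 RPKM) and Ch25h (1.67 RPKM) were lowest. CO-CM libraries had this order down to Abca1 (Abcg1 at 33.9 RPKM, or 18.9 RPKM with the longer model), with Mylip (17.8 RPKM) now overlapping Abca1 (18.2 RPKM) and above Pparg (13.1 RPKM). In PH-CM, Abca1 (73.8 ± 5.33 RPKM) overlapped Npc1 (67.0 ± 3.69 RPKM) behind Plin2 (283 ± 23.5 RPKM). The deposited values imply 10725 exon bases for Npc1, where the annotation used here has 11317. With the latter, Npc1 would be at 63.5 RPKM in PH-CM and would not overlap Abca1. Lpl, at 15.3 ± 4.97 RPKM, came after Npc1 and overlapped Mylip (12.4 RPKM). Mylip in turn overlapped Abcg1 (12.1 RPKM, or 6.72 RPKM and no overlap with the longer model), and Nr1h3 (4.61 RPKM) overlapped Pparg (4.39 RPKM). RPKM carries no factor for library composition, so it is used for the order of genes and not for changes between groups.

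**Figure D4:**
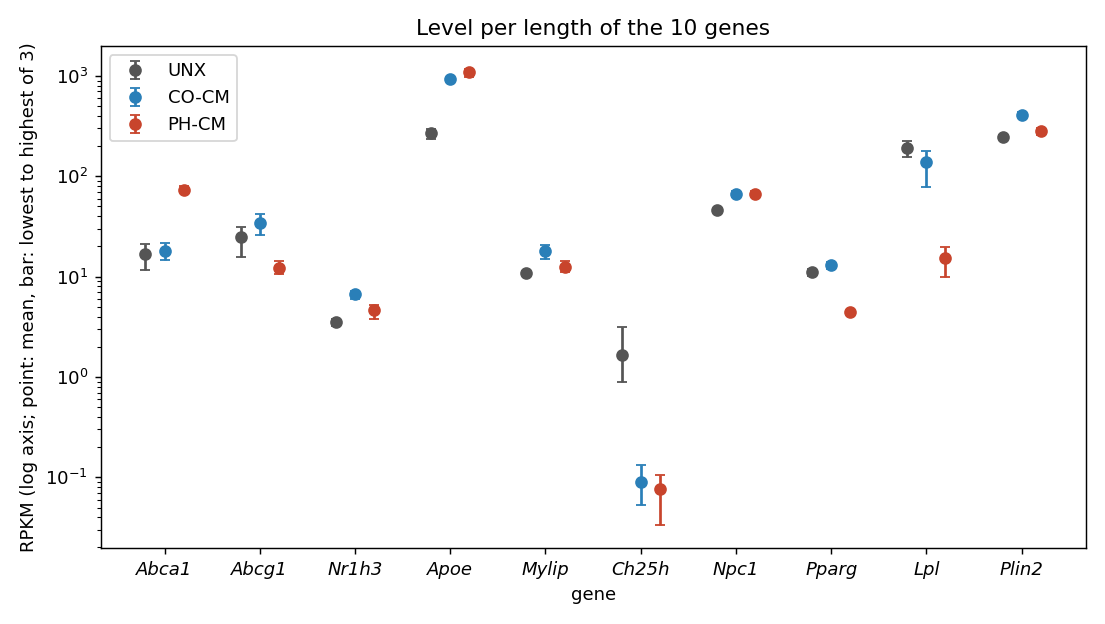
RPKM of the 10 genes (vertical axis, log scale) by group, where points are means of 3 libraries and bars run from the lowest to the highest library. Lpl lies above Npc1 in UNX and below it in PH-CM libraries, and Abca1 lies below Npc1 in UNX and overlaps it in PH-CM libraries. All points use the deposited gene lengths, and with the Npc1 length of the annotation Abca1 does not overlap Npc1 in PH-CM libraries.

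Most partner genes of the receptors that passed the filter were called higher with both media. Of 13 partner genes 10 passed, of which 7 were called higher and 1 lower with PH-CM, 7 higher and 0 lower with CO-CM, and 2 higher and 1 lower between PH-CM and CO-CM. Over all tested genes, 31.3% were called higher and 31.7% lower with PH-CM, and 28% and 28.9% with CO-CM. Between PH-CM and CO-CM, 12.2% were called higher and 15% lower. The same shares stand beside the counts of every list below. Rxra, the shared dimer partner, was at 56.0, 49.2 and 54.7 CPM in UNX, 113, 96.1 and 98.2 CPM in CO-CM and 140.3, 134 and 136 CPM in PH-CM libraries. Its groups did not overlap, and the log2 fold change was 0.94 for CO-CM (FDR = 1e-06), 1.36 for PH-CM (FDR = 4.93e-08) and 0.42 between them (FDR = 0.000987). Rxrb rose by 0.75 with each medium. Nr1h2, which encodes LXRb, had 102 ± 5.74 CPM in UNX and rose by 0.40 with CO-CM and 0.51 with PH-CM. Ppard, the gene of a related receptor, rose by 1.14 and 1.37, where Pparg fell with PH-CM. Cebpa, a transcription factor that works beside PPARg, rose by 1.90 and 1.26, and was lower in PH-CM than in CO-CM (-0.65, FDR = 0.000126). The gene lower in PH-CM than in UNX was Ppargc1b, a coactivator gene, at -0.38 (FDR = 0.0363), chosen after its value was seen. Leaving out replicate 1 or 3 of UNX (-0.34 and -0.40) or replicate 2 or 3 of PH-CM (-0.35 each) ended that call. Among the partner genes, 1 was called lower with CO-CM without CO-CM replicate 1, and 2 were lower between the media without CO-CM replicate 2 and with the replicate number as a block term.

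Other genes described as LXR targets did not move as 1 group. Of 14 genes 10 passed, and 4 were called higher and 5 lower in each of the comparisons with UNX, with medians of -0.23 under PH-CM and -0.31 under CO-CM. Scd1, a desaturase gene of fatty acid synthesis, had log2 fold changes of -3.28 for CO-CM and -3.06 for PH-CM, its paralog Scd2 of -3.30 and -2.46, and Fasn, the fatty acid synthase gene, of -2.27 and -1.86. UNX replicate 1 stood apart for both desaturase genes, with Scd1 at 35.8, 101 and 88.5 CPM and Scd2 at 325, 918 and 739 CPM in UNX libraries. It was still above all treated libraries, and without it the values were -3.63 and -3.40 for Scd1 and -3.63 and -2.79 for Scd2. Srebf1, the LXR target that drives these genes, was lower too, at -0.53 (FDR = 7.91e-05) and -0.30 (FDR = 0.00294), the latter not called without UNX replicate 2 (-0.26). Between PH-CM and CO-CM, 3 genes were higher (Scd2, Fasn and Arl4c) and 1 lower, and 2 were lower without CO-CM replicate 2, CO-CM replicate 3 or PH-CM replicate 1 and with upper-quartile factors. The call of Scd2 (0.83, FDR = 0.0434) was lost with upper-quartile factors and without any 1 of the 6 treated libraries or UNX replicate 3, with values from 0.71 to 0.93. The lower one was Cd5l, a secreted macrophage protein that guards against cell death, at 21.4, 30.8 and 32.1 CPM in UNX, 59.2, 63.3 and 61.5 CPM in CO-CM and 6.41, 6.95 and 5.89 CPM in PH-CM libraries. Cd5l thus rose with CO-CM (1.12, FDR = 2.2e-05), fell with PH-CM (-2.13, FDR = 2.65e-07) and differed between the media by -3.26 (SE 0.14, FDR = 1.42e-07), with no overlap of groups. The 4 genes higher with PH-CM were Pltp (0.93), Smpdl3a (1.00), Arl4c (1.199) and Mertk (1.69), named after their values were seen, and Pltp, Smpdl3a and Mertk also rose with CO-CM.

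Of 12 other genes described as PPARg targets 7 passed, with 3 called higher and 2 lower under PH-CM, 4 higher and 2 lower under CO-CM, and 0 higher and 3 lower between PH-CM and CO-CM. Without CO-CM replicate 1 the 2 genes lower under CO-CM became 1. Fabp4, a fatty acid carrier, was at 24.3, 47.7 and 53.2 CPM in UNX, 177, 215 and 257 CPM in CO-CM and 69.6, 94.6 and 107 CPM in PH-CM libraries. It rose with both media but less with PH-CM, with log2 fold changes of 2.37, 1.11 and, between PH-CM and CO-CM, -1.26 (SE 0.26, FDR = 0.00344). Angptl4, an inhibitor of lipoprotein lipase, rose by 1.32 and 1.203 from 1.65 ± 0.28 CPM, and Cpt1a, the gate of mitochondrial fatty acid oxidation, by 0.93 and 0.69. Gdf15, a stress cytokine, had log2 fold changes of -2.10 and -1.996. The other genes lower in PH-CM than in CO-CM were Acsl1 (-0.32) and Ucp2 (-0.36), named after their values were seen.

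Most genes of the sterol synthesis list were called lower with both media, and most were called higher in PH-CM than in CO-CM. Of 17 genes of SREBP2 and the sterol synthesis pathway 16 passed, with 12 called lower and 0 higher with PH-CM, 14 lower and 0 higher with CO-CM, and 11 higher and 0 lower in PH-CM than in CO-CM. The median log2 fold change of the list was -0.70, -1.17 and 0.56, beside medians of all tested genes within 0.01 of 0. Scap, the escort of SREBP2, was not called and lay above 0 with both media (0.14 with PH-CM and 0.096 with CO-CM), and Dhcr7, a late enzyme gene of the pathway, had log2 fold changes of -0.78 with PH-CM and -0.61 with CO-CM, and both are named after their values were seen. Idi1, an isoprenoid enzyme gene, was at 27.2, 35.9 and 35.2 CPM in UNX, 11.1, 8.78 and 9.84 CPM in CO-CM and 17.9, 15.1 and 15.9 CPM in PH-CM libraries, with no overlap of groups. Its log2 fold change was -1.73 for CO-CM, -1.01 for PH-CM and 0.72 between them (FDR = 0.00121). Cyp51 showed the same order, at -1.57, -0.97 and 0.60, as did Fdps, whose copies elsewhere in the genome make its count uncertain, at -1.85, -1.12 and 0.73. Lss was lower by both comparisons with UNX, at -1.48 and -1.07. Its difference of 0.42 between the media was not called (FDR = 0.0608). That difference was called with the replicate number as a block term (FDR = 0.0182), without UNX replicate 1 (0.42, FDR = 0.000376) and without the 3 libraries numbered 1 (0.45, FDR = 0.00113). The exact test of edgeR (FDR = 0.0282), DESeq2 (FDR = 0.0232) and library size alone (FDR = 0.048) called it as well. So did a fit with no filter (FDR = 0.000974) and one with only the groups compared (FDR = 0.00111).

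Genes that move and store the released lipid were mixed. Of 11 genes of lysosomal sterol handling and esterification 10 passed, with 5 higher and 4 lower with PH-CM, 3 higher and 2 lower with CO-CM, and 3 higher and 2 lower between PH-CM and CO-CM. Lipa, the lysosomal lipase that frees cholesterol from its esters, was at 1299.9, 1296 and 1404 CPM in UNX, 1726, 1793 and 1891 CPM in CO-CM and 884, 794 and 892 CPM in PH-CM libraries. Like Pparg, it rose with CO-CM (0.44, FDR = 0.000131) and fell with PH-CM (-0.64, FDR = 6.32e-06), and it differed between the media by -1.07 (SE 0.06, FDR = 1.16e-06). Soat1, which makes cholesteryl esters, rose by 1.21 and 0.97 with CO-CM and PH-CM. Npc2, which hands cholesterol to NPC1, rose by 0.69 and 0.81, while Soat2 had log2 fold changes of -0.57 and -1.04 from 4.36 ± 0.30 CPM. The call of Soat2 with CO-CM was lost without CO-CM replicate 2 (-0.45), which left 1 gene of this list lower with CO-CM.

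Of 14 lipid droplet genes 8 passed, with 5 higher and 2 lower with PH-CM, 5 higher and 1 lower with CO-CM, and 2 higher and 3 lower between PH-CM and CO-CM. Hilpda, an inhibitor of triglyceride lipase that is also a hypoxia-induced gene, was at 6.76, 13.0 and 12.2 CPM in UNX, 7.58, 14.1 and 13.6 CPM in CO-CM and 57.3, 86.8 and 96.0 CPM in PH-CM libraries. As for Abca1, the PH-CM libraries alone stood out, with log2 fold changes of 2.90 against UNX (SE 0.30, FDR = 7.62e-06) and 2.76 against CO-CM (SE 0.30, FDR = 5.44e-05), and 0.14 for CO-CM against UNX (FDR = 0.697), which was -0.11 without UNX replicate 1. Pnpla2, the triglyceride lipase gene, rose by 1.18 with CO-CM and 1.08 with PH-CM. Mgll, a monoglyceride lipase gene at 0.35 ± 0.20 CPM in UNX, rose with CO-CM to 2.33 ± 0.73 CPM and was lower in PH-CM than in CO-CM (-2.05, FDR = 0.00149). It had 84 reads in UNX and 108 in PH-CM libraries and passed the filter only through the CO-CM libraries, so calls in these directions are partly built into the selection. Fitm2, which takes part in droplet formation, had log2 fold changes of -0.58 and -0.83.

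Of 10 genes around lipoprotein lipase and lipoprotein uptake 6 passed, with 2 higher and 4 lower with PH-CM, 2 higher and 3 lower with CO-CM, and 1 higher and 2 lower between PH-CM and CO-CM. Scarb1, the high density lipoprotein receptor, fell with CO-CM (-0.53, FDR = 8.12e-05) and further with PH-CM (-1.04, FDR = 4.47e-07), and the difference of -0.51 between them was called (FDR = 0.000353). Lrp1, an uptake receptor for remnants that carry apolipoprotein E, was at 3939 ± 231 CPM in UNX, 3659 ± 293 CPM in CO-CM and 2633 ± 129 CPM in PH-CM libraries and was called lower in PH-CM (-0.58, FDR = 4.09e-05). Sdc4, a heparan sulfate carrier, was lower with each, at -1.08 for CO-CM and -0.37 for PH-CM. Of 7 oxysterol genes 2 passed. Cyp27a1, which makes another oxysterol, rose by 1.79 with CO-CM and 1.35 with PH-CM from 8.54 ± 1.42 CPM, opposite to Ch25h. Between the media its log2 fold change of -0.43 was not called (FDR = 0.0572). That difference was called with the replicate number as a block term (FDR = 3.45e-05) and without the 3 libraries numbered 1 (-0.40). It was also called without UNX replicate 1 (-0.43), CO-CM replicate 1 (-0.55) or PH-CM replicate 2 (-0.54). The exact test of edgeR (FDR = 0.0305), DESeq2 (FDR = 0.0218) and a fit with no filter (FDR = 0.00172) called it as well. So did upper-quartile factors (FDR = 0.0419) and library size alone (FDR = 0.0484). Gpr183, the receptor for oxysterols derived from the Ch25h product, fell with each, with log2 fold changes of -0.83 for CO-CM, -1.90 for PH-CM and, between the media, -1.07 (FDR = 5.06e-05).

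**Figure D5:**
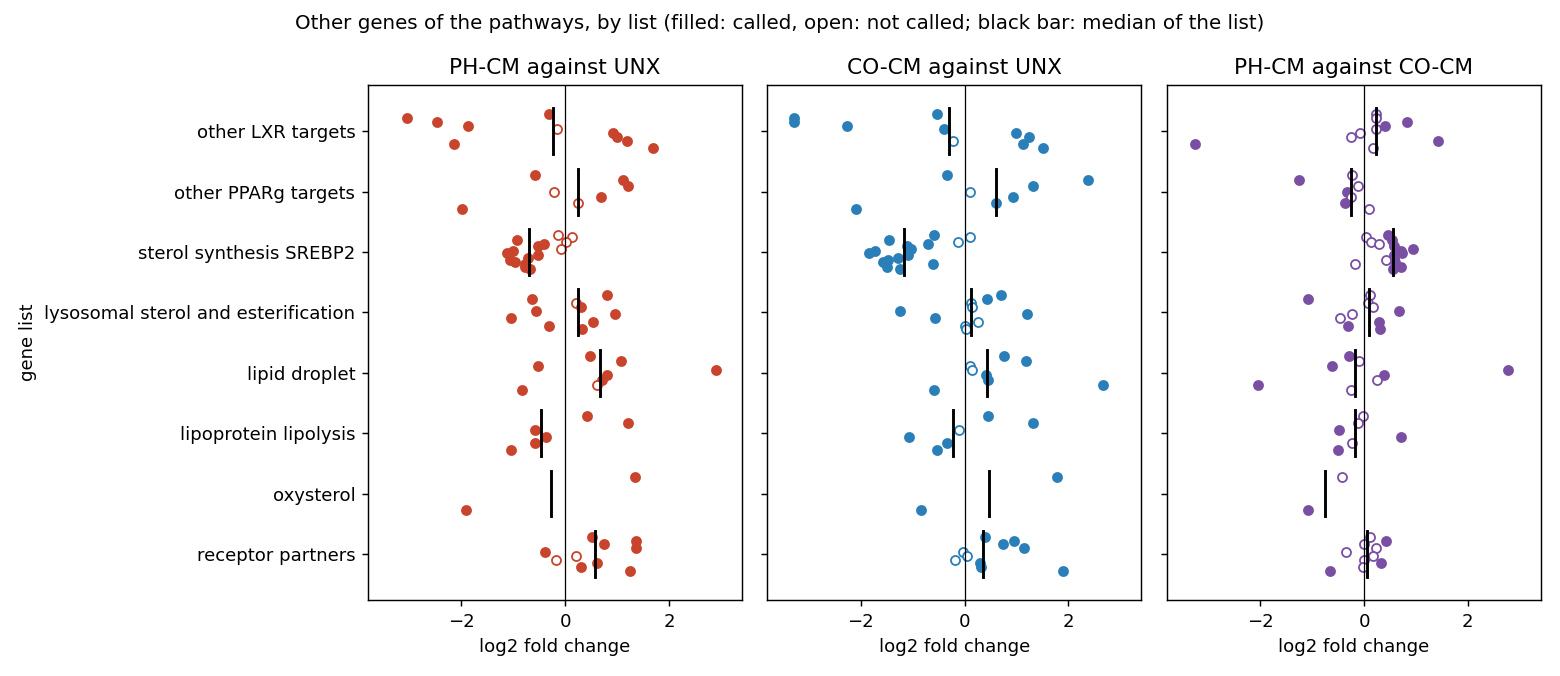
Log2 fold changes (horizontal axis) of the genes of 8 lists beside the 10 genes, for PH-CM against UNX, CO-CM against UNX and PH-CM against CO-CM, with 1 point per gene that passed the filter, filled where called, and a bar at the median of each list. The median of the SREBP2 list lies left of 0 with both media and right of 0 between them, and the other LXR targets spread to both sides.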

How the data were processed

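RNA-Seq of 9 libraries was analysed, grouped and numbered by their labels. The authors ran FastQC and AfterQC on the reads, used STAR to align them to GRCm38, and counted reads on exons with featureCounts 1.6.2. Raw counts were deposited as whole numbers of reads for each gene, not normalized, and the deposited RPKM values are these counts scaled to exon length and counted reads. Low counts (under 20) were even in 81.4% to 83.8% of cases in each library, and mates of a read pair were therefore treated as counted singly. Deposited tables of the authors' own comparisons (fold changes and p-values) were not used.

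Counts were tested in R 4.3.3 with edgeR 4.0.16 (TMM, quasi-likelihood test, 1 fit of all 9 libraries, CPM over 1 required in 3 or more libraries) and, as an alternative, DESeq2 1.42.0, and the code was tested on simulated data. FDR is the Benjamini-Hochberg value over all tested genes. With 3 libraries against 3, an exact permutation test cannot go below p = 0.1, so the calls rest on the spread edgeR estimates across genes. At these depths counting error is small except for Ch25h, Mgll and Vldlr. Same-numbered libraries deviated together (r from 0.276 to 0.484 in 9 pairs), and the numbers were used to pair libraries in an alternative fit. The main fit, which gave all values unless said otherwise, held a mean per group and no replicate term. The members and lists were chosen with earlier results of these data known. Beyond the 10 genes, each list names at most the 4 largest changes called in PH-CM against UNX or CO-CM, plus Srebf1, Nr1h2 and Rxra, and 1 further gene of this rule is not reported here. Genes named outside this rule are said to be so where they appear. For the pattern most like a member, the 2 genes with the highest correlation are named. Gene positions come from a GENCODE annotation of GRCm38 and promoters from RefSeq.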

Additional observations from a re-analysis of the deposited data

How the results depend on the processing

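The counts of calls and the fold changes of the 10 genes and of the other named genes were recomputed under 22 alternatives: the exact test of edgeR, DESeq2, other size factors, other filters, fits without the third group, the replicate block, other fold thresholds, halved counts, and each library left out. Leaving out the 3 libraries numbered 1 together was added after seeing the data. At a fold threshold of 2, the numbers of the 10 genes called were 5, 2 and 4 for PH-CM against UNX, CO-CM against UNX and PH-CM against CO-CM, and those of all genes 2153, 1655 and 612, since the threshold is stricter. With 1 library left out, the 10 genes gave 8 to 10, 6 to 8 and 7 to 8 calls, and all genes 7288 to 7572, 6454 to 6804 and 2768 to 3386. Without the 3 libraries numbered 1 the calls among the 10 genes were 8, 9 and 8, and 10 of the 84 counts of calls over the lists changed, by at most 2 genes. Correlations, RPKM orders and promoter shares were not recomputed under these settings, and the other Abcg1 and Npc1 lengths were tried after seeing the data.

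The replicate numbers were used as a block to pair libraries, which gave 8, 9 and 7 calls among the 10 genes. It added calls of Abcg1 and Lpl for CO-CM against UNX, given above, and changed no other call of the 10 genes. With no filter on low counts, Abcg1 (0.47, FDR = 0.00416) and Lpl (-0.45, FDR = 0.0232) were likewise called there, and Pparg was not. Signs turned only in differences that were not called. Abca1 in CO-CM against UNX became -0.032 without UNX replicate 1 (0.37 without UNX replicate 2) and -0.023 without the libraries numbered 1. Ch25h in PH-CM against CO-CM became 0.11 without CO-CM replicate 3 or without PH-CM replicate 1, and 0.064 without the libraries numbered 1 (-0.56 without PH-CM replicate 2). Npc1 in PH-CM against CO-CM became -0.028 with upper-quartile factors, and -0.019, -0.012 and -0.015 without CO-CM replicates 2 and 3 and PH-CM replicate 1 (0.059 without CO-CM replicate 1). Hilpda in CO-CM against UNX became -0.11 without UNX replicate 1 and -0.014 without CO-CM replicate 2 (0.37 at the highest). Among the other named genes that were recomputed, calls lost under an alternative other than the fold threshold of 2 were those of Vldlr, Ppargc1b, Scd2, Srebf1 and Soat2 given above. The cause was not tested. The member windows that held DR4 numbered 0 at 1 mismatch and 2 at 3 mismatches, and those with DR1 numbered 0 and 2.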
